A study of Mus musculus with 12 samples.

Results

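The pentose phosphate and NADPH enzymes were followed in mouse retinal explants, which are whole retinas kept alive in culture medium. The group held 10 genes chosen by name: G6pdx, H6pd, Pgls and Pgd of the oxidative branch, Tkt, Taldo1, Rpia and Rpe of the non-oxidative branch, and Me1 and Idh1, which make NADPH in the cytosol outside the pathway. All 10 were among the 53707 genes of the count table, and 10 of 10 passed the filter on low counts, as did 21061 genes in all. The explants came from wild-type C57BL/6J mice at postnatal day 28, dissected without sclera and retinal pigment epithelium. They were kept for 48 hours in Neurobasal-A medium with B27 and N2 supplements, under 5% CO2, with either 5 mM or 25 mM glucose. The paper describes a short incubation in Krebs' Ringers medium afterwards. Whether the retinas used for RNA had this step is not clear from its methods. There were 3 biological replicates at each concentration and 2 technical replicates of each, 12 stranded total RNA libraries, with the first technical replicates in batch 1 and the second in batch 2. Whether each biological replicate came from a different animal is not given in the sources used here, so the tests measure the spread between these samples.

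The pentose phosphate pathway takes glucose 6-phosphate away from glycolysis. Its oxidative branch makes NADPH and ribulose 5-phosphate, and its non-oxidative branch exchanges sugar phosphates with glycolysis in both directions. NADPH is the electron donor for glutathione and thioredoxin reduction, for lipid synthesis and, in photoreceptors, for the reduction of all-trans retinal after bleaching. G6pdx encodes the glucose 6-phosphate dehydrogenase of the cytosol, whereas H6pd encodes a separate enzyme in the lumen of the endoplasmic reticulum that carries out the first and second steps of the oxidative branch there.

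H6pd was lower at 25 mM than at 5 mM glucose and was the only 1 of the 10 genes called at a false discovery rate (FDR) under 0.05. Its log2 fold change was -2.30 ± 0.42 (SE, 3 against 3 replicates), or 4.91-fold higher at 5 mM. Pgd, Tkt, Pgls, Taldo1 and G6pdx had log2 fold changes from -1.58 to -0.70, and none of the 5 passed the threshold. Rpia, Rpe, Me1 and Idh1 had log2 fold changes from -0.13 to 0.08.

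Across all genes tested, 417 were called at an FDR under 0.05 (1.98%), of which 108 were lower at 25 mM (0.513%). With the study's cutoffs of 0.01 for the FDR and 2 for the fold change, edgeR gave 0 calls, against 6052 genes with an unadjusted p under 0.05, and DESeq2 gave 1387 calls. An unadjusted p under 0.05 was reached by 28.7% of all genes in either direction and by 15.5% in the lower direction. Among the 10 enzyme genes it was reached by 5, H6pd, Pgd, G6pdx, Tkt and Taldo1, all lower at 25 mM. The replicates did not overlap between concentrations in 31.8% of all genes, 15.8% with every 25 mM replicate the lower, against 3 of the 10 enzyme genes, H6pd, Pgd and G6pdx, all lower at 25 mM. The median log2 fold change was -0.98 over the 10 genes and -0.01 over all genes tested.

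Sequence just upstream of the transcription start is shown for H6pd and Pgd, which had the largest log2 fold changes in size, and for Me1, which differed little. The bases are from RefSeq windows on GRCm38.p6, read 5′ to 3′ on the gene's minus strand and ended before the first annotated exon. The H6pd stretch is chr4:150003237-150003486, the Pgd stretch chr4:149166772-149166955 and the Me1 stretch chr9:86695954-86696164. Capitals mark matches to GGGCGG, the GC box, on either strand.
H6pd: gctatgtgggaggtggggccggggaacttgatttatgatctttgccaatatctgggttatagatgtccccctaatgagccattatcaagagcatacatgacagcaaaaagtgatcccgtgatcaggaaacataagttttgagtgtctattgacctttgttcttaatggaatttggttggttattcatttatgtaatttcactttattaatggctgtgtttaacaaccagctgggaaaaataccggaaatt
Pgd: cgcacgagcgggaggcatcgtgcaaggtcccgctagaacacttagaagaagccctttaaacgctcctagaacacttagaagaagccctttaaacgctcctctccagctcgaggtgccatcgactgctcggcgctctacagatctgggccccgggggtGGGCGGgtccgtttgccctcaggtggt
Me1: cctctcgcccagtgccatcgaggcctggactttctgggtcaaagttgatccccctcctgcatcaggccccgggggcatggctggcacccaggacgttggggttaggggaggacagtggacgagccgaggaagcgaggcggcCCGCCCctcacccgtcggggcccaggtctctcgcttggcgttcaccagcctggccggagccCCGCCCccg
The H6pd stretch had a GC content of 38.8% with 3 CpG dinucleotides in its 250 bases, and 9.70% of the 32851 mouse windows of that length had a lower GC content. The full window of Pgd had 60.4% GC and 18 CpG, and that of Me1 72.0% and 23 CpG, against medians of 52.4% and 6 CpG over all windows. GGGCGG was present in 9 of the 10 windows of these genes, H6pd being the exception, and in 32.7% of all windows. CACGTG, the E box, was in 0 of 10 and in 6.02% of all windows. TGACNNNGC, the core of the antioxidant response element, was in 1 of 10, that of G6pdx, and in 10.2% of all windows. Both strands were searched, and overlapping matches were counted as separate matches. The G6pdx window begins in an annotated exon and is not shown. The RefSeq start of H6pd is 106 bases from the start of its leading transcript, and the window lies inside an intron of a longer, rarely counted H6pd transcript. For G6pdx this distance is 314 bases and for Tkt 8478 bases. The windows behind the shares of all windows were not matched to these genes for GC content.

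The oxidative branch was described gene by gene in CPM (counts scaled to the library size) with TMM factors, technical replicates summed. H6pd lies on chr4:149979475-150009023 of GRCm38. At 5 mM glucose H6pd had 27.0, 63.5 and 51.6 CPM in replicates 1, 2 and 3, and at 25 mM 5.96, 8.18 and 14.8 CPM. Every 25 mM replicate was below every 5 mM replicate, and the means were 47.4 ± 18.6 and 9.64 ± 4.58 CPM (SD, n = 3 each). The difference had an FDR of 0.0426 and a 95% interval of the log2 fold change from -3.26 to -1.34. The call was lost without 5 mM replicate 2 (FDR 0.146), 5 mM replicate 3 (0.159), 25 mM replicate 1 (0.138) or 25 mM replicate 2 (0.174), settings in which 0 genes of the table were called. In batch 1 alone the log2 fold change of H6pd was -3.16 (FDR 0.00906) and in batch 2 alone -1.32 (FDR 0.42). The difference between the batches, 1.84 on the log2 scale, had an unadjusted p of 0.0143 and an FDR of 0.237 over 20306 genes. As separate libraries, the 6 at 5 mM ran from 13.4 to 87.0 CPM and the 6 at 25 mM from 3.09 to 18.3 CPM, so single libraries overlapped.

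Pgd, the 6-phosphogluconate dehydrogenase that makes the second NADPH of the branch, lies near H6pd on the same chromosome, on chr4:149149991-149166771. It had 57.3, 147 and 131 CPM at 5 mM and 27.7, 32.3 and 52.5 CPM at 25 mM. The groups did not overlap, but the highest 25 mM replicate was close to the lowest 5 mM replicate. The log2 fold change was -1.58 ± 0.38 (SE) with an FDR of 0.0651, which missed the threshold. It was -2.09 in batch 1 alone (FDR 0.0125) and -1.02 in batch 2 alone (FDR 0.429), with an FDR of 0.244 for the difference between batches.

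G6pdx, which catalyses the committed step of the cytosolic pathway, had 100.5, 142 and 157 CPM at 5 mM and 80.3, 74.6 and 90.4 CPM at 25 mM. The groups did not overlap. The log2 fold change was -0.70 ± 0.20 (SE) with an FDR of 0.0805. G6pdx lies on chrX:74409483-74429194, and one of its exons overlaps an exon of Ikbkg on the other strand. Whether counting used the strand is not given in the sources used here, so reads in that stretch cannot be assigned.

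Pgls, the lactonase between the dehydrogenases, was counted at a low level, 58 to 559 counts per library. It had 3.47, 21.2 and 16.3 CPM at 5 mM and 6.31, 3.83 and 6.67 CPM at 25 mM. Replicate 1 at 5 mM was below all 3 replicates at 25 mM, so the groups overlapped, and the log2 fold change of -1.28 ± 0.58 (SE) had an FDR of 0.186. With transcript counts summed in place of the gene counts it was -0.68 (FDR 0.356). The deposited gene values were not sums of the transcript values, and the source of this gap was not tested. Pgls also shares exon bases with Fam129c on the same strand, so its counts are uncertain.

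**Figure D1:**
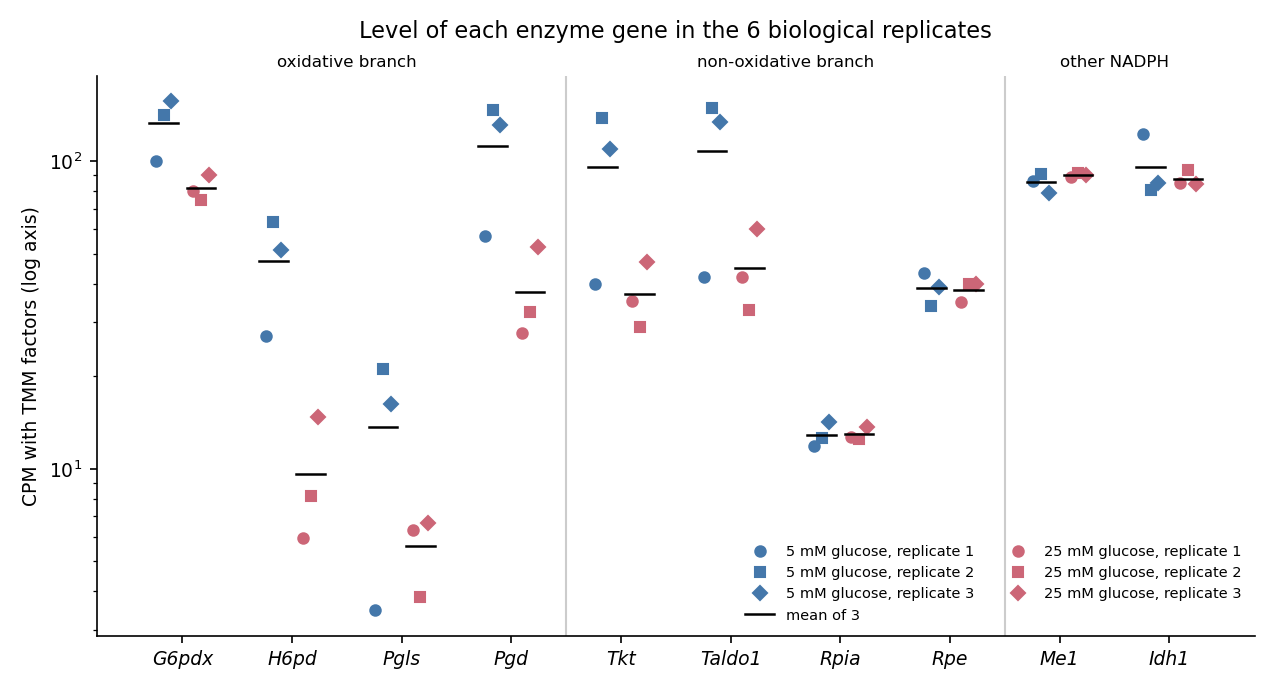
Level of each enzyme gene in the 6 biological replicates, in CPM with TMM factors on a log axis, with the mean of 3 replicates as a black bar; blue marks are 5 mM and red marks 25 mM glucose. H6pd, Pgd and G6pdx had no overlap between concentrations, 5 mM replicate 1 (blue circle) was the lowest 5 mM replicate in the 6 genes from G6pdx to Taldo1, and Rpia, Rpe, Me1 and Idh1 overlapped.

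In the non-oxidative branch, none of the 4 genes was called. Tkt, which moves 2-carbon units between sugar phosphates, had 39.8, 139 and 109.8 CPM at 5 mM and 35.2, 28.9 and 47.2 CPM at 25 mM. Taldo1, which moves 3-carbon units, had 42.0, 149 and 134 CPM at 5 mM and 42.2, 32.7 and 60.4 CPM at 25 mM. In both genes 5 mM replicates 2 and 3 were above all other replicates and 5 mM replicate 1 fell within the 25 mM range. The log2 fold change was -1.37 ± 0.42 (SE, FDR 0.0904) for Tkt and -1.26 ± 0.44 (SE, FDR 0.116) for Taldo1. Their log2 fold changes in the batches alone were -1.43 and -1.25 for Tkt and -1.14 and -1.36 for Taldo1.

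Rpia, which interconverts ribulose 5-phosphate and ribose 5-phosphate, stayed between 11.9 and 14.1 CPM at 5 mM and between 12.4 and 13.7 CPM at 25 mM. Rpe, which forms xylulose 5-phosphate, was between 33.8 and 43.3 CPM at 5 mM and between 34.8 and 40.0 CPM at 25 mM. Neither differed beyond the spread. The log2 fold change was 0.01 for Rpia (95% interval from -0.46 to 0.47, FDR 0.984) and -0.02 for Rpe (95% interval from -0.41 to 0.38, FDR 0.96). Rpe shares exon bases with Kansl1l on the other strand.

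No difference was detected for the remaining cytosolic NADPH sources either. Me1, the malic enzyme, had 86.5, 90.9 and 78.9 CPM at 5 mM and 88.9, 91.6 and 90.4 CPM at 25 mM. Its log2 fold change was 0.08 with a 95% interval from -0.25 to 0.41 (FDR 0.737). Idh1, the cytosolic isocitrate dehydrogenase, had 122, 80.4 and 85.2 CPM at 5 mM and 85.2, 93.5 and 84.1 CPM at 25 mM, with 5 mM replicate 1 the highest. Its log2 fold change was -0.13 with a 95% interval from -0.58 to 0.32 (FDR 0.675). The directions of Rpia, Rpe, Me1 and Idh1 depended on the setting and are given as values only.

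**Figure D2:**
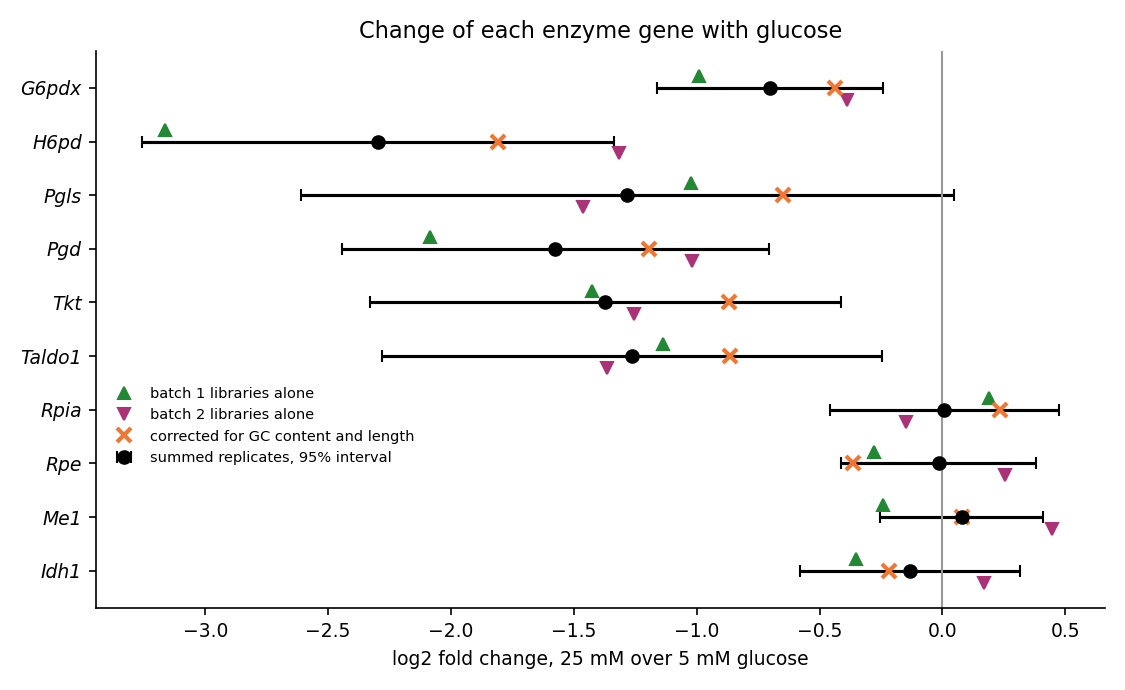
Log2 fold change of each enzyme gene, 25 mM over 5 mM glucose; black points are the summed replicates with the 95% interval, triangles each batch alone and crosses the values corrected for base composition and length. The 6 genes from G6pdx to Taldo1 lie below 0 at every point, the interval of Pgls crosses 0, and the batches disagree most for H6pd, at -3.16 and -1.32.

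One replicate stood apart in these genes. In G6pdx, H6pd, Pgls, Pgd, Tkt and Taldo1, 5 mM replicate 1 was the lowest of the 5 mM replicates in 6 of 6, and 25 mM replicate 3 the highest at 25 mM in 6 of 6. Both held for 24.0% of all genes tested and for 57.4% of the 4907 genes with a log2 fold change under -0.5. When 5 mM replicate 1 was left out, all 6 genes passed an FDR under 0.05, with values from 0.0103 to 0.0124, in a fit that called 5845 genes. The log2 fold changes were then -2.58 for H6pd, -1.89 for Pgd, -1.74 for Tkt, -1.74 for Pgls, -1.65 for Taldo1 and -0.87 for G6pdx. Because this sample was the lowest at 5 mM in these 6 genes, leaving it out widened their differences and gives no separate support. With only the first technical replicate of that sample, H6pd (FDR 0.019) and Pgd (FDR 0.0328) were called, in a fit that called 1731 genes. The library left out was the lower for both genes, with 13.4 against 36.1 CPM for H6pd and 37.4 against 70.2 CPM for Pgd. This setting therefore gives no separate support either.

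Ratios between enzymes within a replicate do not depend on the scaling between libraries. With technical replicates summed, the log2 ratio of H6pd to G6pdx in CPM was -1.55 ± 0.37 at 5 mM and -3.18 ± 0.57 at 25 mM (SD, n = 3 each). The difference was -1.63, with no overlap between the groups. An exact permutation test (two-sided) of this ratio gave p = 0.1, the smallest p that 3 against 3 allows, so this design cannot reach 0.05. The difference depended on the batch, at -2.31 in batch 1 alone and -1.0016 in batch 2 alone (exact permutation p = 0.3). In batch 2 the groups overlapped, with 5 mM replicate 1 (-3.01) below 25 mM replicates 2 (-2.88) and 3 (-2.43). The log2 ratio of Pgd to G6pdx differed by -0.84 (exact permutation p = 0.2). The log2 ratio of Tkt to Taldo1 differed by only -0.11, from -0.16 ± 0.11 to -0.27 ± 0.09 (SD, n = 3 each, exact permutation p = 0.3). The log2 ratio of Me1 to Idh1 differed by 0.19 (exact permutation p = 0.5). Adjusted over these 4 ratios by Benjamini-Hochberg, the exact permutation p-values were 0.4, 0.4, 0.4 and 0.5.

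Levels of different genes were compared per transcript length, as TPM (the length-scaled share of a library) computed from the deposited transcript counts. At 5 mM glucose the order was Taldo1 with 173 ± 98.2 TPM, Tkt with 109.0 ± 57.5, G6pdx with 101 ± 22.2, Pgd with 95.2 ± 43.8, Idh1 with 81.4 ± 17.1, Me1 with 58.3 ± 4.0, Rpe with 36.5 ± 3.66, H6pd with 19.6 ± 8.36, Pgls with 15.6 ± 10.6 and Rpia with 13.9 ± 1.04 TPM (SD, n = 3 each). The first 5 in that order overlapped one another, as did the last 3. At 25 mM the order began with Idh1 at 80.9 ± 4.29, Taldo1 at 76.5 ± 27.8, Me1 at 66.3 ± 5.69 and G6pdx at 65.8 ± 11 TPM. Tkt at 45.2 ± 14.2, Rpe at 39.2 ± 2.17 and Pgd at 34.1 ± 12.7 TPM followed, with overlapping replicates. Rpia at 14.9 ± 1.65, Pgls at 7.30 ± 2.31 and H6pd at 4.37 ± 2.16 TPM were last, with every replicate of Rpia above those of Pgls and H6pd. H6pd thus stood above Rpia on average at 5 mM and below it in every replicate at 25 mM.

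Summed over the branch, the 4 oxidative genes had 136, 286 and 272 TPM at 5 mM and 109.6, 87.0 and 138 TPM at 25 mM. Replicate 1 at 5 mM was below replicate 3 at 25 mM. The oxidative genes held 32.5 ± 2.48% of the summed TPM of the 10 enzymes at 5 mM and 25.5 ± 1.79% at 25 mM, and Me1 with Idh1 held 22.1 ± 11.1% and 34.5 ± 5.44% (SD, n = 3 each). Such shares fall for one set whenever another rises.

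Transcripts were tested in the same way, over 64990 transcripts, of which 0 (0%) were called at an FDR under 0.05 with edgeR and 16.4% had an unadjusted p under 0.05. Of 40 transcripts of the enzymes tested, 0 were called and 7 had an unadjusted p under 0.05, all lower at 25 mM. H6pd came almost wholly from 1 coding transcript, ENSMUST00000084117, with 97.7 ± 1.73% of its transcript counts at 5 mM and 98.3 ± 1.94% at 25 mM (SD, n = 3 each). The coding transcript of Pgls had 1.02, 8.99 and 6.85 CPM at 5 mM and 1.64, 0.215 and 1.73 CPM at 25 mM, whereas its retained-intron transcript had 2.56, 5.28 and 5.20 CPM at 5 mM and 4.41, 4.24 and 4.84 CPM at 25 mM. The log2 fold change was -2.23 for the coding transcript of Pgls and 0.05 for the retained-intron transcript, and neither was called.

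The share of counts on coding transcripts was lower on average at 25 mM for Pgls, Pgd, Rpia, Taldo1, Tkt and G6pdx. It was higher on average for H6pd, Rpe and Me1. For H6pd it was 99.9, 99.8 and 99.3% at 5 mM and 100% in every 25 mM replicate. For Pgd it was 87.7, 91.5 and 89.4% at 5 mM and 76.3, 79.3 and 84.3% at 25 mM, with no overlap. For Rpia, whose total did not differ, it was 78.0, 77.2 and 73.9% at 5 mM and 66.2, 68.5 and 71.8% at 25 mM, also with no overlap. For Pgls it was 27.1, 61.7 and 57.3% at 5 mM and 28.3, 7.08 and 26.7% at 25 mM, and these overlapped. Tkt had 26.1 ± 12.4% at 5 mM and 24.8 ± 5.85% at 25 mM (SD, n = 3 each), most of its counts being on transcripts not annotated as coding. Among 7535 genes with coding and retained-intron transcripts and at least 60 counts per replicate, 79.2% had a lower mean coding share at 25 mM, 28.3% were lower in every 25 mM replicate, and the median difference was -2.16 percentage points. The 7535 genes included 6 of the enzymes, and of these only Pgd and Rpia were lower in every 25 mM replicate. The part of the shift over the 7535 genes in the results for the enzymes was not tested.

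**Figure D3:**
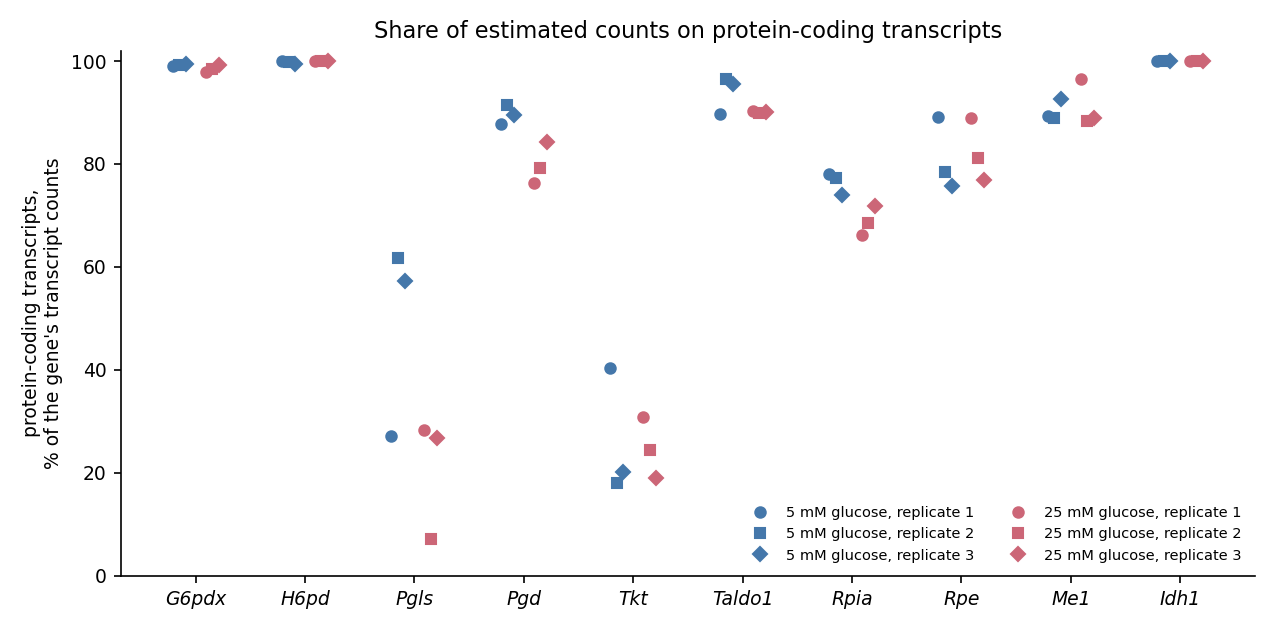
Share of each gene's estimated transcript counts on protein-coding transcripts, in percent, in each biological replicate; blue marks are 5 mM and red marks 25 mM glucose. Pgd and Rpia had lower shares in every 25 mM replicate, and H6pd and Idh1 stayed near 100%.

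Base composition was read from the annotation. The leading transcript, the one with the most counts, had 52.6% GC in G6pdx, 53.7% in Taldo1, 54.2% in Pgd, 55.7% in Tkt, 55.9% in H6pd and 57.4% in Pgls. Rpia had 51.9%, Me1 47.2%, Idh1 43.8% and Rpe 39.0%. Over all genes with a GC value, taken in 5 groups of equal size from low to high GC, the median log2 fold change was 0.34, 0.12, 0.01, -0.21 and -0.48. With both GC content and length corrected in each sample, log2 fold changes were -1.81 for H6pd (FDR 0.0149), -1.20 for Pgd (FDR 0.0314), -0.87 for Tkt (FDR 0.0582), -0.86 for Taldo1 (FDR 0.107), -0.65 for Pgls (FDR 0.264) and -0.44 for G6pdx (FDR 0.0524). H6pd and Pgd were called in that fit, which called 2518 genes.

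**Figure D4:**
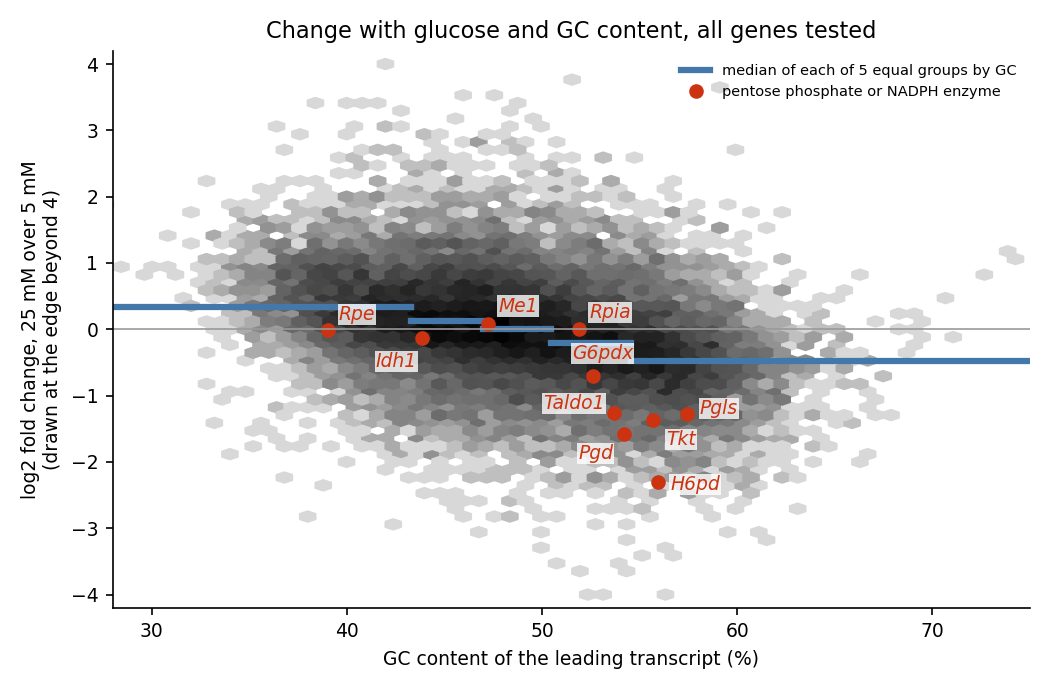
Log2 fold change, 25 mM over 5 mM glucose, against GC content of the leading transcript in percent, for 20307 genes (grey, darker where more genes lie), with the median of each of 5 groups by GC as a blue bar and the 10 enzyme genes in red. The medians go from 0.34 in the lowest group to -0.48 in the highest, and H6pd lies at -2.30, below the other enzyme genes.

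Other genes tied to the pathway were read from fixed lists. Of 7 paralogs and side enzymes tested, 0 were called at an FDR under 0.05 and 1 had an unadjusted p under 0.05, Pgm2, a phosphopentomutase, at -0.71 (FDR 0.123). The paralogs G6pd2, Tktl1 and Tktl2 did not pass the filter on low counts. Of 13 mitochondrial and folate NADPH sources, 0 were called and 6 had an unadjusted p under 0.05. Of these 6, 5 were lower at 25 mM and 1 was higher. Over all genes tested, 15.5% had such a p in the lower direction and 28.7% in either direction. The largest changes among the 6 were the mitochondrial NAD kinase Nadk2 at a log2 fold change of 1.10 (FDR 0.0594) and the mitochondrial isocitrate dehydrogenase Idh2 at -0.83 (FDR 0.132). The medians of these lists were -0.00 and -0.21, against -0.01 for all genes tested.

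Of 18 genes for enzymes that use NADPH, 2 were called, both higher at 25 mM. They were Rdh8 and Rdh12, 2 retinol dehydrogenases of photoreceptors that reduce all-trans retinal. Rdh8 went from 7.21 ± 1.4 CPM at 5 mM to 30.8 ± 10.6 CPM at 25 mM (SD, n = 3 each), with a log2 fold change of 2.10 (FDR 0.0271). Rdh12 went from 47.8 ± 5.92 to 93.9 ± 4.43 CPM, with a log2 fold change of 0.97 (FDR 0.0359). Another 7 of the 18 had an unadjusted p under 0.05 in the lower direction, the largest being the biliverdin reductase Blvrb at -1.70 (FDR 0.0977), and the median of the list was -0.44. Rdh11, also a retinol dehydrogenase of this list, had a log2 fold change of -0.09 (FDR 0.688). Its 25 mM replicates were all below its 5 mM replicates. Of 5 genes for partners of H6pd at the endoplasmic reticulum, 0 were called. Hsd11b1, the steroid reductase that uses the NADPH made by H6pd, had a log2 fold change of -1.32 (FDR 0.124) at 5.03 and 2.02 CPM, and the sugar phosphate carrier Slc37a2 had -1.16 (FDR 0.112). The carrier Slc37a4, which brings glucose 6-phosphate into the lumen, had 0.16 (FDR 0.65).

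Of 8 regulators of these genes, 0 were called, and all 8 had log2 fold changes below 0, with a median of -0.37. Over all genes tested, 10675 of 21061 were below 0. Trp53 was the only 1 of the 8 regulators with an unadjusted p under 0.05, at -1.08 (FDR 0.0923). Of 3 genes for the supply of glucose 6-phosphate, 0 were called. The isomerase Gpi1, which takes it into glycolysis, had -0.83 (FDR 0.103) and the hexokinase Hk2 had 0.48 (FDR 0.0954).

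The 5 genes whose log2 CPM followed that of H6pd most closely over the 12 libraries were Chst1, a carbohydrate sulfotransferase (Pearson r = 0.995), Angptl2, a secreted angiopoietin-like protein (0.992), Itpripl1 (0.990), Fam167b (0.990) and Ppp1ca, a catalytic subunit of protein phosphatase 1 (0.989). Chst1 and Angptl2 were called, with log2 fold changes of -2.25 (FDR 0.0456) and -2.70 (FDR 0.0475). Among the enzymes, Pgd was most like H6pd, with r = 0.979 and rank 48 of 18724 genes, followed by G6pdx with 0.898, Tkt with 0.881 and Taldo1 with 0.825. These libraries include pairs from the same sample and share the difference between concentrations, so r is a description only.

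Library totals ranged from 14815285 to 36692484 estimated counts, and a single library held 41 to 2181 counts of H6pd. Depth differed between the concentrations. With technical replicates summed, totals ran from 43002302 to 60098862 at 5 mM and from 37944826 to 42451809 at 25 mM, without overlap. Markers of the cell types were checked for the tissue. Rod markers were at 2245 to 4539 summed CPM at 5 mM and 4706 to 6668 at 25 mM, with Pde6b, Cnga1, Nrl and Nr2e3 of 6 called, all higher at 25 mM, and 1 of 5 cone markers, Opn1mw, was called, also higher, while Opn1sw had a log2 fold change of -1.01 (FDR 0.0704) and Pde6h of -0.20 (FDR 0.749). Lists for Mueller glia, bipolar, amacrine and ganglion cells had 0 calls and medians from -0.33 to 0.17. Vascular markers were at 912 to 1587 summed CPM at 5 mM and at 505 to 841 at 25 mM, with 0 of 6 called, 4 at an unadjusted p under 0.05, all with a lower mean at 25 mM, a median of -2.06, and log2 fold changes of -0.03 for Kdr and 0.09 for Rgs5. Microglial markers were at 59.0 to 118 summed CPM at 5 mM and at 33.2 to 65.4 at 25 mM, with 0 of 5 called and a median of -0.77. Of 5 markers of the retinal pigment epithelium, which was removed, 3 were tested, at 1.01 to 3.28 summed CPM, and Rpe65 and Pmel were below the filter on low counts. Among the 5 mM replicates, replicate 1 had the lowest summed markers of rods, cones, Mueller glia, vascular cells, microglia and the retinal pigment epithelium, and the highest of bipolar, amacrine and ganglion cells. The part of these cell types in the results for the enzymes was not tested. Of markers with an unadjusted p under 0.05, the largest log2 fold changes were 2.12 and 1.65 in rods (Cnga1 and Pde6b), 1.75 and 1.39 in cones (Opn1mw and Gnat2), 0.76 and -0.42 in Mueller glia (Aqp4 and Dkk3), 0.99 in bipolar cells (Cabp5), -0.96 and -0.92 in amacrine cells (Gad2 and Gad1), -1.68 in ganglion cells (Rbpms), -2.46 and -2.20 in vascular cells (Pdgfrb and Cldn5), and -1.22 and -1.19 in microglia (C1qa and Csf1r). Log2 fold changes were below 0 for 3 of 5 bipolar markers. Among ganglion markers they were below 0 for 1 of 5, Rbpms, and reached 1.26 in the others. In whole tissue, fewer cells of a type and less RNA per cell cannot be told apart.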

How the data were processed

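RNA was measured in 12 libraries, with 3 biological replicates per glucose concentration and 2 technical replicates of each. Libraries were made by the authors from 4 ng of total RNA with a stranded low-input kit and 13 PCR cycles, and sequenced as 101-base read pairs. The authors deposited estimated counts (expected counts) per gene and per transcript, not normalized between libraries. The gene values were not sums of the transcript values. In 246 genes with 1 transcript and over 500 counts in every library, library medians of gene over transcript value ran from 0.979 to 1.014. The build named in the submitters' processing notes is GRCm38, and the aligner and counter are not given in the sources used here. No nonzero gene value was a whole number, so technical replicates were summed and rounded, where the design had spoken of counts. GENCODE M21 matched 90.8% of gene identifiers, holding at least 99.2% of each library's counts. There were 0 unused columns.

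Genes passing filterByExpr were compared with the legacy quasi-likelihood test of edgeR 4.0.16 (R 4.3.3, limma 3.58.1), with TMM factors, no block and Benjamini-Hochberg adjustment over 21061 genes. Log2 fold changes are 25 mM over 5 mM. Only the edgeR fit of genes was tested on simulated counts with known changes. Those counts had a fixed spread and no replicate, batch or GC effects, so the test does not cover such effects. Alternatives were DESeq2 1.42.0, limma-voom, other scalings and filters, a correction for base composition and length, a replicate block, single batches, and leaving out each replicate. Correlations used log2 of CPM plus 2. Library totals limit counting error only, and no molecular identifiers are described. The spread between replicates was an estimated biological coefficient of variation of 0.297. The 10 members and the lists were chosen with earlier results of these data known. Named beyond the 10 were list genes at an FDR under 0.05, the 2 largest changes per list among those with an unadjusted p under 0.05, and the 5 genes most like H6pd; 1 marker gene is not reported here. G6pd2, Tktl1, Tktl2, Rdh11, Slc37a4, Opn1sw, Pde6h, Kdr, Rgs5, Rpe65 and Pmel were named outside that rule. Tables and plots used matplotlib 3.10.9, scipy 1.17.1 and pandas 2.3.3 under Python 3.11.15.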

Additional observations from a re-analysis of the deposited data

How the results depend on the processing

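The fall of H6pd kept its direction in 21 of 21 alternatives, from -3.16 to -1.32, and an FDR under 0.05 in 16; Pgd, Tkt, Taldo1, Pgls and G6pdx also stayed negative in 21 of 21 and reached that FDR in 9, 5, 3, 1 and 4. The number of the 10 enzymes called was 1 in the comparison as reported, 5 with DESeq2, 4 without a filter on low counts, 4 with 12 libraries as separate samples and a batch term, 3 in batch 1 alone, 0 in batch 2 alone, 2 with the GC content and length correction, 2 with only the first technical replicate of 5 mM replicate 1, and 0 to 6 with a replicate left out. In the same order, genes called at an FDR under 0.05 were 417 as reported, then 3489, 1979, 2918, 3279, 0, 2518, 1731, and 0 to 5845 with a replicate left out. Those at an FDR under 0.01 and a fold over 2 were 0 as reported, then 1387 with DESeq2, 275, 109, 367 in batch 1, 193 with the GC and length correction, 56 with only the first technical replicate, and 0 to 108. The fit with 12 libraries treats technical replicates as independent samples, so its FDR values and calls overstate the evidence. A fit with 1 replicate left out compares 3 with 2, and the cause of these shifts was not tested.

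Replicate numbers gave no clear pairing of the samples. Deviations from the group means of same-numbered replicates correlated at -0.01, -0.45 and 0.29, and not every sample was most like its own number. With 3 samples per group, whose deviations are not independent, these correlations cannot exclude a pairing. With the replicate block, 2 enzymes were called, H6pd (FDR 0.0223) and Pgd (FDR 0.0321), and 990 genes in all. With the block and the GC and length correction, 3 enzymes (H6pd, Pgd and Tkt), 2925 genes and, at the stricter thresholds, 391 genes were called.

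The level genes changed sign in some settings, with FDR values of at least 0.455. Rpia was -0.008 without the filter, -0.15 in batch 2 alone, and -0.047 to 0.069 with a replicate left out. Rpe was 0.045 with library totals, 0.033 with at least 1 CPM in 3 replicates, 0.0039 with 12 libraries, 0.25 in batch 2 alone, 0.08 with summed transcript counts, and -0.115 to 0.073 with a replicate left out. Me1 was -0.24 in batch 1 alone. Idh1 was 0.17 in batch 2 alone and -0.254 to 0.0802 with a replicate left out.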
